A study of Mus musculus with 2 samples.

Results

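Antisense RNAs and RNAs made from divergent promoters are noncoding transcripts defined by the coding gene beside them. A total of 181 of them were detected in 2 sequenced libraries of CMT167R cells. They were chosen by rule from a table of 54532 genes: the listed biotype was antisense or bidirectional_promoter_lncRNA, and the level was at least 1 CPM (a count scaled to a library total of 1000000) in at least 1 library. Host genes of small nucleolar RNAs (symbols beginning Snhg, and Gas5) were to be left out, and none passed. The table lists 2991 genes of these biotypes. The 181 comprised 155 of 2826 antisense genes and 26 of 165 bidirectional_promoter_lncRNA genes. The rule used the levels in both libraries, so the difference between the libraries is a description for these genes.

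The cells derive from CMT167, a lung carcinoma line of the mouse, and CMT167R is described as resistant to anti-PD1, an antibody that blocks an inhibitory receptor on T cells. The untreated library is called CON. The other library, PKCi, came from the same cells after 24 h with 50 nM of a compound named only PKCi in the labels. Each group had 1 library, so no difference below has a replicate check and no p-value is given. The libraries held 16090186 (CON) and 16071153 (PKCi) gene counts, so 1 CPM stood for about 16.1 counts. Intervals are exact 95% intervals of the ratio of 2 counts and cover counting error only. With 1 library per group, the treatment and any other difference between the cultures or libraries cannot be told apart. The epithelial keratin genes Krt8 (933 and 1182 CPM in CON and PKCi) and Krt18 (643 and 765 CPM) were abundant and Krt19 was at 59.7 and 71.1 CPM. Of the other epithelial markers Epcam (3.48 and 6.28 CPM) and Cdh1 (2.92 and 3.36 CPM) were low, Cldn4 was under 1 CPM, and the lung markers Nkx2-1, Sftpc and Sftpb had 0 counts in both libraries. One protocol text in the labels speaks of retinas. Of 8 retina markers 6 had 0 counts in both libraries and all 8 were under 1 CPM.

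Many mammalian promoters are transcribed in both directions, and a head-to-head arrangement places a noncoding RNA and a coding gene on opposite strands with transcription pointing away from each other, often from starts close together. Other antisense RNAs start inside or beyond a coding gene and run back across it. Such RNAs can mark an active promoter, interfere with transcription of the gene they cross or act on its chromatin, and most have no established function. Airn, which silences the imprinted gene Igf2r in mouse, is the best known example in this set.

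The sequences below show what a shared promoter looks like for 3 pairs whose noncoding member was at least 2-fold apart between the libraries: Junos with Jun, Map2k3os with Map2k3, and F730043M19Rik with Atxn7l1. Each line is the RefSeq promoter window of the coding gene on GRCm38.p6, 250 bases before to 50 after its start, read 5′ to 3′ on the strand of the coding gene. Capitals mark the bases between the RefSeq start of the noncoding RNA and that of the coding gene.
Jun, chr4:95052173-95052472, minus strand: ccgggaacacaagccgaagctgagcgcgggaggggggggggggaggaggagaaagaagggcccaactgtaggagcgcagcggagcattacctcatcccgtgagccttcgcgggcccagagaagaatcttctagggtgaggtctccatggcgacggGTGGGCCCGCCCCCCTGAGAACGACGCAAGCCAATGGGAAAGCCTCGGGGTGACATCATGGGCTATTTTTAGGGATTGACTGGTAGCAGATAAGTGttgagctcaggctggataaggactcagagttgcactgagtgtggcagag
Map2k3, chr11:60931804-60932103, plus strand: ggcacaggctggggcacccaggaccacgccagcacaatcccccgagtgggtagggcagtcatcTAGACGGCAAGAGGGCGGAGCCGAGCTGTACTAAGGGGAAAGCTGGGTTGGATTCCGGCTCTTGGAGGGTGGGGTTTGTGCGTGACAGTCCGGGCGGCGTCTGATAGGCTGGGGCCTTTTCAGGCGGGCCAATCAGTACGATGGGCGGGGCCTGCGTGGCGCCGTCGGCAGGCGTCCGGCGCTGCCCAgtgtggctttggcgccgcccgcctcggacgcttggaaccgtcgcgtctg
Atxn7l1, chr12:33147436-33147735, plus strand: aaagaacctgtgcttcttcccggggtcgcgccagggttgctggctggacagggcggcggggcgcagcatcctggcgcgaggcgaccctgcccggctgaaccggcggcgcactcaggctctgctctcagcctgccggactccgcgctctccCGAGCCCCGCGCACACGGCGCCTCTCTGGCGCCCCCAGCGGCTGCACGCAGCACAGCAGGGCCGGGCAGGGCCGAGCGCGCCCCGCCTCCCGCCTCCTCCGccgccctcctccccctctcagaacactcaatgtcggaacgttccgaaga

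The starts lay 95 bases apart for Junos and Jun, 187 for Map2k3os and Map2k3, and 100 for F730043M19Rik and Atxn7l1. The RefSeq windows of both genes of a pair therefore shared 194, 286 and 199 bases. For Junos the deposited table places the start 783 bases from the RefSeq start, inside Jun. The Jun window held 15 CpG dinucleotides, the Map2k3 window 28 and the Atxn7l1 window 35, against a median of 7 over 32851 RefSeq promoter windows of the same length. Of those windows, 65.4% had fewer CpG than Jun, 85.8% fewer than Map2k3 and 93.05% fewer than Atxn7l1. The windows were searched on both strands for TGANTCA (AP-1), GGAATG (TEAD), an NF-kB pattern, CACGTG (E box) and TGACGTCA (CRE). In that order, 7.81%, 14.7%, 4.79%, 7.15% and 1.79% of all windows hold them. The NF-kB pattern left some positions open to any base and is not the usual consensus, so a match to it need not fit that consensus. None of these motifs stood in the 3 windows printed, which were chosen because they hold both starts of a pair. Of all 15 windows found for 10 head-to-head pairs, 5 held a motif. These were an E box for C230037L18Rik and for Arsa, the NF-kB pattern for Gm10516, and TEAD for 2900089D17Rik and for Rnf26. TGACATCA, the AP-1 element known from the Jun promoter, and CCAAT, the box bound by NF-Y, were added after the sequences were seen. The Jun window held 1 match to each, as did that of 4632427E13Rik, and the Map2k3 window 1 CCAAT. The window of Junos, which shares bases with that of Jun, also held both. CCAAT stood as well in the windows of Map2k3os, C230037L18Rik, Gm10516 and 2900089D17Rik. Over all 32851 RefSeq windows the shares were 3.62% and 37.4%.

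Most of the 181 RNAs were scarce, and the median member had 20 counts in CON and 28 in PKCi. In their higher library, 156 were under 5 CPM and 25 at 5 CPM or more, 10 of these at 10 CPM or more. Tug1 and Brip1os held 31.1% of all counts of the group in CON. Tug1, a conserved RNA needed in the developing mouse retina, was at 87.9 CPM in CON and 99.5 CPM in PKCi (1.13-fold, 95% interval 1.05 to 1.22). Its head-to-head neighbour Morc2a, a chromatin ATPase gene, was at 110 and 92.6 CPM. Brip1os was at 93.2 and 60.6 CPM, 1.54-fold lower with PKCi (95% interval 1.42 to 1.67). The coding gene it overlaps most is Ints2, an Integrator subunit gene, at 65.8 and 52.95 CPM. Brip1, the helicase gene it is named for, was at 48.04 and 27.005 CPM. Both coding genes by Brip1os were thus lower in the PKCi library, as Brip1os was.

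The next in abundance were 3 RNAs of the bidirectional class. 4933412E12Rik was at 22.9 CPM in CON and 38.02 CPM in PKCi (1.66-fold higher, 95% interval 1.46 to 1.90). The coding gene listed over most of it, Gm10271, had 1 count in each library. Among coding genes of at least 1 CPM it overlapped Rab3ip most, in a head-to-head arrangement. Rab3ip, a Rab exchange factor gene, was at 164 and 116 CPM, lower with PKCi. D430020J02Rik was at 17.7 and 13.8 CPM beside Ncapg2, a condensin II subunit gene, at 169 and 77.3 CPM. Ndufb1-ps was at 17.3 and 14.1 CPM beside Cpsf2, which encodes a subunit of the mRNA 3′ processing complex, at 169 and 105 CPM. In these last pairs both genes were lower with PKCi, and the coding gene differed more.

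Just inside the 1 CPM limit stood members with 17 counts in their higher library, Runx2os1 and Gm10785 among them. Runx2os1 had 17 counts in CON and 16 in PKCi, and Gm10785 had 17 and 15. Just outside stood Gm16185 with 16 and 16 counts and Gm9856 with 11 and 16.

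**Figure D1:**
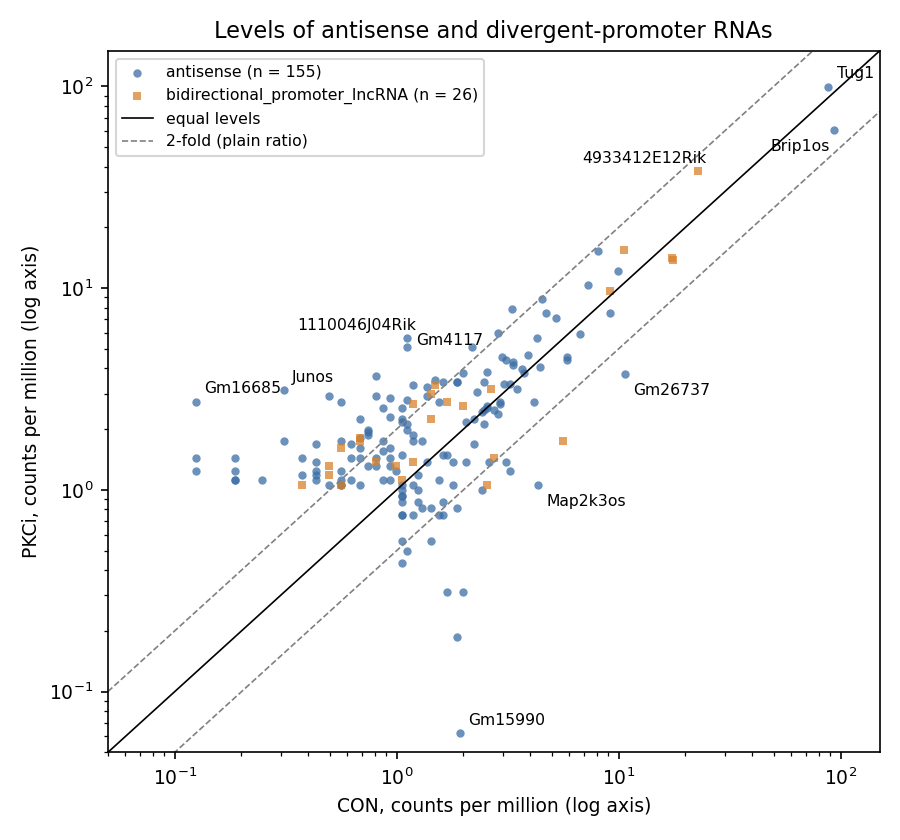
Level of each of the 181 RNAs in the CON library (x axis) and the PKCi library (y axis), both in CPM on log axes, coloured by biotype. Solid and dashed lines mark equal levels and a plain ratio of 2. Tug1 and Brip1os stand at the top right, and most points lie near or below 5 CPM.

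The group as a whole stood toward higher levels in the treated library. Measured as log2(CPM + 1), 12 of 181 members were at least 2-fold higher with PKCi, beside 6.53% of all 12273 genes with at least 1 CPM, and 7 were at least 2-fold lower, beside 5.13%. These shares, 6.63% and 3.87%, are near those of all genes, but that holds only where the added 1 CPM shrinks the ratios of scarce RNAs. By plain CPM ratio, a count added after the data were seen, 61 members (33.7%) were at least 2-fold higher, beside 9.96% of all genes, and 17 (9.39%) at least 2-fold lower, beside 7.38%. A member that reaches 1 CPM in 1 library only is admitted by its high value there. Counts in either direction therefore rest partly on the rule. Many members at least 2-fold higher passed through PKCi alone, Gm16685 and Junos among them. Protein-coding genes between 1 and 5 CPM in their higher library gave 25.6% and 14.8% by plain ratio, and the 156 members in that range 35.9% and 9.62%. The log2 ratio was above 0 for 125 members (69.1%), beside 49.2% of all genes. That count includes members with equal counts, since the totals of the libraries differ slightly; there were 6 of these. The middle of the distribution lay between quartiles of −0.10 and 0.71 on the log2 scale, around a median of 0.34 that stood beside −0.01 for all genes. The interval of that median from order statistics, which treats members as independent, was 0.21 to 0.44. The median was 0.33 for the antisense class and 0.41 for the bidirectional class, in which 21 of 26 members were above 0. On that scale 0 of the 26 were at least 2-fold higher, and by plain ratio 9. The counting interval of the plain ratio excluded 1 for 92 of the 181 members, 71 higher and 21 lower, and for 72.4% of all genes. Most members have few counts and so wide intervals, and all genes were not split by direction.

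Other gene classes stood to the same side. The 228 lincRNA genes (long intergenic noncoding RNAs) with at least 1 CPM had a median log2 ratio of 0.34 and 73.2% above 0. The 10943 protein-coding genes had a median of −0.02, but the 1125 of them between 1 and 5 CPM in the higher library had a median of 0.17 with 60.8% above 0. Members in that range had a median of 0.35, and the 25 members at 5 CPM or more one of 0.33. The filter admitted 61 members through PKCi alone and 24 through CON alone, and of all 12273 genes 573 and 349. No difference between these classes was tested. Across all 2826 antisense genes, filtered or not, summed counts were 9933 in CON and 11940 in PKCi (1.20-fold, 95% interval 1.17 to 1.24). Sense intronic RNAs, which lie within introns of coding genes, were 1.21-fold higher in sum (95% interval 1.11 to 1.31), and 19071 genes had a count in PKCi against 18284 in CON. The part of these library-wide differences in the shift of the group was not tested.

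**Figure D2:**
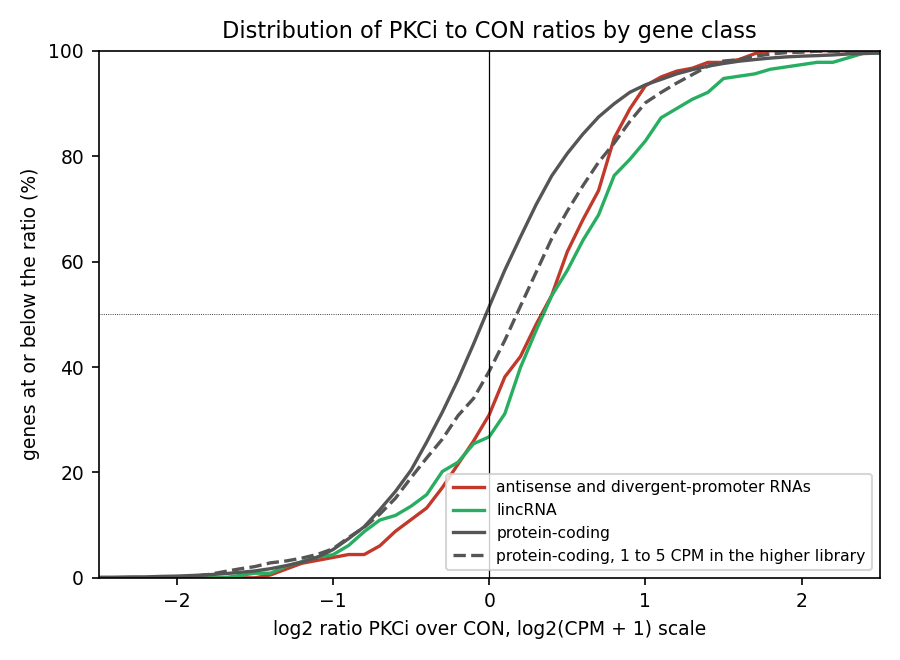
Share of genes (y axis, %) at or below each log2 ratio of PKCi over CON (x axis, log2(CPM + 1) scale) for the 181 RNAs, 228 lincRNA genes, 10943 protein-coding genes and the 1125 protein-coding genes between 1 and 5 CPM. The curve of the 181 RNAs crosses 50% at a log2 ratio of 0.34, near that of lincRNA genes and to the right of both protein-coding curves.

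Each member was set beside 1 protein-coding gene, the one its span overlaps most or else the nearest, called its partner. The arrangements were 21 head-to-head pairs with a gap, 50 pairs that overlap at their 5′ parts (called overlapping head-to-head), 59 RNAs inside the partner on the other strand, 39 tail-to-tail overlaps, 8 partners inside the RNA, 3 overlaps on the same strand and 1 pair without overlap or close starts. The 181 members had 180 partners, since Gm15265 and A730011C13Rik both lie in Pi4kb. In 161 pairs the partner reached 1 CPM. Members were low beside them: per listed gene length, the median member stood at 6.24% of its partner in CON and 8.64% in PKCi among these 161 pairs. The member's level as a share of its partner was higher in PKCi in 109 of the 161 pairs. The filter admitted 61 of the 181 members through PKCi alone and 24 through CON alone. The medians and this count therefore rest partly on the rule, and no other gene class was set beside them. In CON 9 members exceeded their partner per length and in PKCi 8.

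Member and partner lay on the same side somewhat more often than on opposite sides. The log2 ratio was above 0 for 125 members and 101 partners, which by itself puts many pairs on the same side. Of the 181 pairs 104 (57.5%) were on the same side of 0, 76 with both higher and 28 with both lower in PKCi, and 69 were on opposite sides. Across pairs Pearson's r of the log2 ratios was 0.488 and Spearman's rho 0.431, given without a p since all pairs share the same 2 libraries. Among pairs whose partner reached 1 CPM, 59.6% were on the same side with an r of 0.502. By the same pairing, lincRNA genes with such a partner (n = 176) had 53.4% and an r of 0.282, and protein-coding genes with their nearest coding gene (n = 7492) had 55.8% and an r of 0.131. The difference between these classes was not tested. Where the partner was at least 2-fold higher on the log2(CPM + 1) scale, 16 of 17 members were above 0, and where it was at least 2-fold lower, 7 of 10 were below 0. For lincRNA genes these counts were 21 of 22 and 2 of 9, and for protein-coding genes 262 of 444 and 214 of 357.

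Reads that fall where a member and its partner both have exons could be assigned to either unless the counting used strand. The labels name both a stranded kit and one that does not mark strand, and the strand setting of the counting is not given. On the GENCODE M21 annotation 126 members shared exon bases with another listed gene, 114 of them with the partner, and the median member shared 8.55% of its exon bases. At least 50% was shared by 10 members. In the 67 pairs without any shared exon base, 67.2% were on the same side with an r of 0.572. In the 114 pairs that shared exon bases the values were 51.8% and 0.439. Among 33 genes of these biotypes, expressed or not, that had at least 50% of their exon bases within those of an opposite-strand partner averaging 100 CPM or more, 18 had 0 counts in both libraries. With 1 to 50% shared the count was 30 of 176, and with overlap but no shared exon base 42 of 113, so these zeros do not show how strand was treated.

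**Figure D3:**
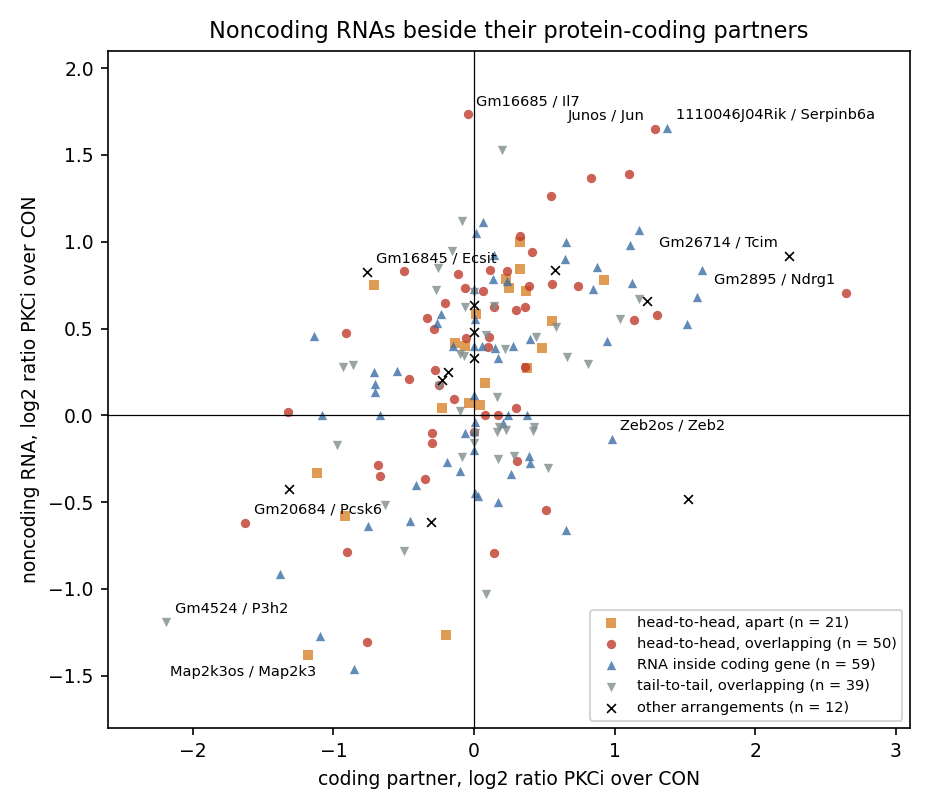
Log2 ratio of PKCi over CON for each noncoding RNA (y axis) against that of its protein-coding partner (x axis), on the log2(CPM + 1) scale, with 1 point per pair and the symbol giving the arrangement. Pearson's r is 0.488 over the 181 pairs, with Junos and Jun at the upper right, and Gm4524 and P3h2 and Map2k3os and Map2k3 at the lower left.

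Head-to-head pairs with a gap had their 5′ ends 16 to 273 bases apart, and 16 of the 21 were on the same side (r = 0.674). Overlapping head-to-head pairs had 5′ ends 21 to 28353 bases apart, within 1000 bases in 23 of 50. Of them 32 of 50 were on the same side (r = 0.513), of RNAs inside the partner 34 of 59 (r = 0.553), and of tail-to-tail pairs 17 of 39 (r = 0.359). Spearman's rho of the tail-to-tail pairs was 0.130. The arrangement is that to the gene the rule picked, expressed or not. Of RNAs called tail-to-tail with a partner under 1 CPM, 4933412E12Rik and B230354K17Rik are head-to-head with the expressed genes Rab3ip and Cdc5l, on opposite sides. Also head-to-head with an expressed gene, on the same side, are 4933431E20Rik with Gstm5, Gm10069 with Fkbp4 and 1810021B22Rik with Trabd. The difference between arrangements was not tested.

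Map2k3os had the second lowest log2 ratio of the group and stood in the gap class. It had 70 counts in CON and 17 in PKCi (4.35 and 1.06 CPM, 4.11-fold lower, 95% interval 2.40 to 7.46). Map2k3, the kinase that activates p38 MAP kinase, lies on the other side of the CpG-rich window printed above and was at 149 and 65.1 CPM (2.29-fold lower, 95% interval 2.13 to 2.46). No exon base is shared between Map2k3os and any listed gene. F730043M19Rik, with 90 and 28 counts, was 3.21-fold lower (95% interval 2.08 to 5.10). Its partner Atxn7l1 was at 13.1 and 11.3 CPM, which counting error alone could span (1.16-fold lower, 95% interval 0.945 to 1.42). Both genes were lower in the Map2k3 pair; in the Atxn7l1 pair the interval excluded 1 for the noncoding RNA and not for the coding gene.

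The other gap pairs lower on both sides were D430020J02Rik with Ncapg2, above, and 2810001G20Rik with Cox10, a heme A synthesis gene. 2810001G20Rik had 26 counts in CON and 12 in PKCi, and Cox10 was at 45.3 and 23.5 CPM. Their starts lie 16 bases apart in the table, the closest of the gap pairs. On the higher side, Gm12279 had 2 and 20 counts beside the ubiquitin gene Ubb at 486 and 609 CPM. Gm4285 had 12 and 32 counts beside Tpt1, the translationally controlled tumour protein gene, at 1587 and 3008 CPM. 0610009L18Rik had 11 and 29 counts beside the actin gene Actg1 at 2852 and 3390 CPM. These RNAs were few beside highly expressed coding genes, and both genes of each pair were higher in PKCi. At the other end, Cep83os (147 and 155 counts) and BC051226 (33 and 35 counts) lay beside Cep83 (59.7 and 58.2 CPM) and Daxx (37.8 and 39.1 CPM), where neither gene was far from equality.

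Of the 21 gap pairs 5 lay on opposite sides, all with the RNA higher, and 4632427E13Rik was the 1 among them with both genes beyond 0.58 on the log2 scale. It had 19 counts in CON and 43 in PKCi (2.27-fold higher, 95% interval 1.29 to 4.12). Rab30, a Golgi Rab GTPase gene whose start is 135 bases away, was at 11.1 and 6.41 CPM (1.74-fold lower, 95% interval 1.36 to 2.23). The intervals of both genes excluded 1, on opposite sides.

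**Figure D4:**
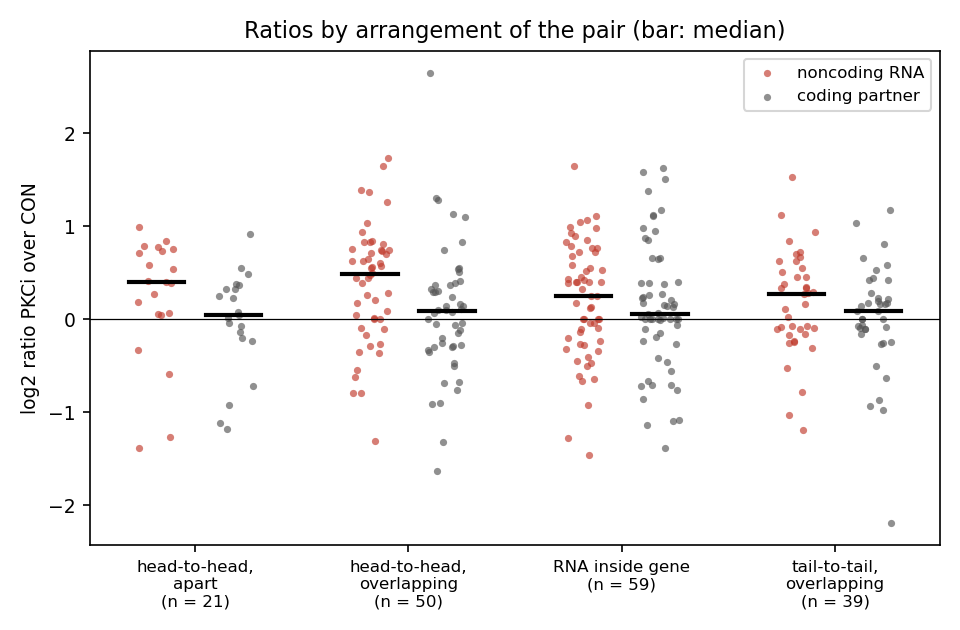
Log2 ratio of PKCi over CON (y axis) of each noncoding RNA and of its coding partner in the 4 most frequent arrangements (x axis), 1 point per gene, with bars at the medians. Medians of the noncoding RNAs lie above 0 in each arrangement, from 0.26 for RNAs inside the partner to 0.49 for overlapping head-to-head pairs, and those of the partners between 0.04 and 0.09.

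Overlapping head-to-head pairs held 6 of the 12 members that were at least 2-fold higher on the log2(CPM + 1) scale. All 6 were under 1 CPM in CON and passed the filter through PKCi alone. Gm16685 had the highest log2 ratio of the group, with 2 counts in CON and 44 in PKCi (22.0-fold, 95% interval 5.75 to 188). Its partner Il7, which encodes a lymphocyte growth cytokine, was at 11.1 and 10.8 CPM (0.968-fold, 95% interval 0.781 to 1.20). The RNA and the cytokine gene thus parted, and the exons of Gm16685 share 6.60% of their bases with other genes. Junos had 5 and 50 counts (10.01-fold higher, 95% interval 4.02 to 32.2), and Jun, an AP-1 subunit gene induced by many signals, was at 75.7 and 186 CPM (2.46-fold higher, 95% interval 2.30 to 2.64). Both genes of the Jun locus were higher, the RNA from a far lower level.

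C230037L18Rik had 8 counts in CON and 47 in PKCi, and its partner Arsa, the lysosomal enzyme arylsulfatase A, was at 120 and 259 CPM. Gm10516 had 13 and 59 counts beside Rcor3, a CoREST corepressor gene, at 18.3 and 33.4 CPM. 2900089D17Rik had 9 and 44 counts beside Bri3 at 32.1 and 47.4 CPM. In each of these 3 pairs RNA and coding gene were both higher. 4930458D05Rik had 3 and 23 counts (7.68-fold, 95% interval 2.32 to 39.9), beside Gpat3, a glycerolipid synthesis gene, at 10.1 and 12.9 CPM (1.28-fold, 95% interval 1.04 to 1.58). The exons of C230037L18Rik and 4930458D05Rik share 34.2% and 34.4% of their bases with other genes. Gm26737, which had the lowest log2 ratio of this arrangement, was at 10.7 and 3.73 CPM (2.86-fold lower, 95% interval 2.12 to 3.91), and its partner Rnf26, a ubiquitin ligase gene, at 7.96 and 4.29 CPM (1.85-fold lower, 95% interval 1.37 to 2.52).

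Further overlapping head-to-head pairs had a partner far from equality and a member nearer to it. Gm2895 had 11 counts in CON and 28 in PKCi beside the stress-responsive gene Ndrg1, at 160 and 1008 CPM, the highest log2 ratio of any partner (2.65). Gm19610 had 25 and 44 counts beside Ereg, the EGF receptor ligand epiregulin, at 50.3 and 112 CPM. Gm26782 had 76 and 121 counts beside Tep1, a telomerase-associated protein gene, at 32.7 and 82.1 CPM. On the lower side, Gm20684 had 44 and 23 counts beside the proprotein convertase gene Pcsk6 at 274 and 87.9 CPM. All 4 members lay on the side of their partner.

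Airn had 40 and 34 counts (1.18-fold lower, 95% interval 0.725 to 1.91), too few to show a difference, and Igf2r, the receptor gene it silences on 1 parental copy in mouse, was at 273 and 221 CPM (1.23-fold lower, 95% interval 1.18 to 1.29).

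**Figure D5:**
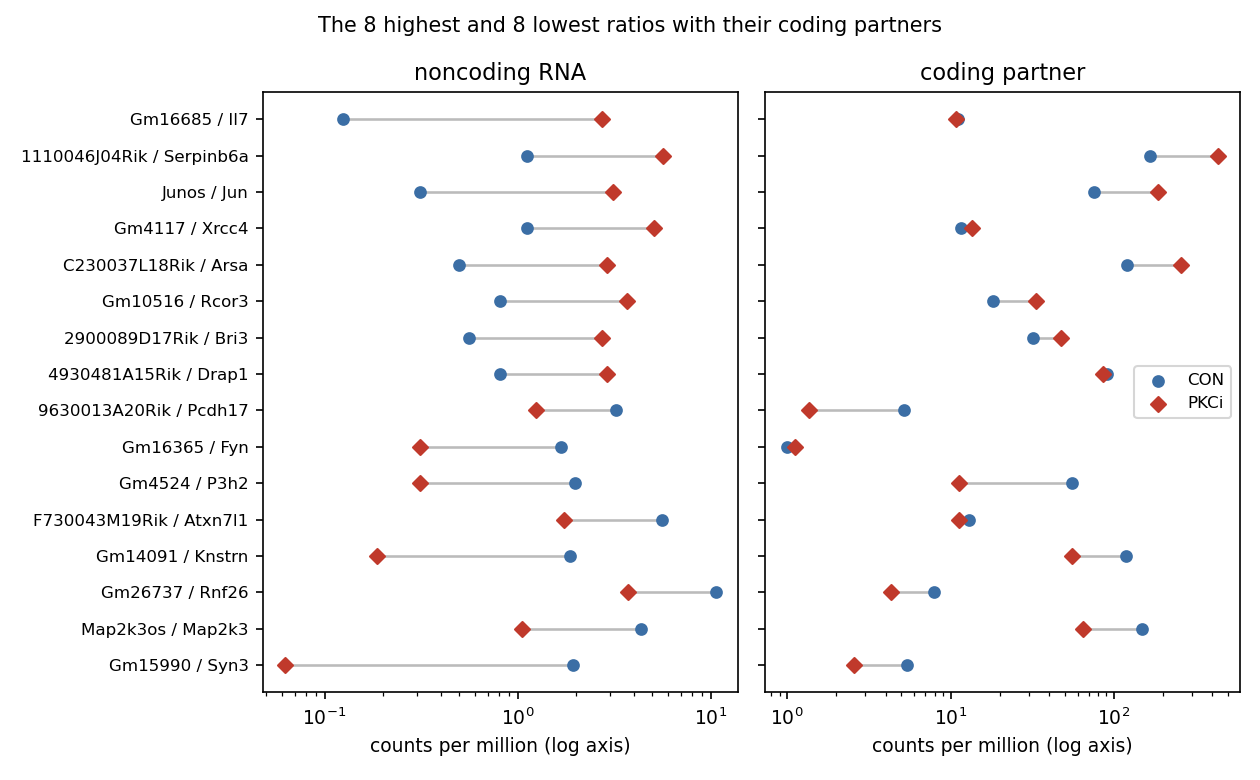
Levels in CPM (log axes) of the 8 RNAs with the highest and the 8 with the lowest log2 ratio (left) and of their coding partners (right), in CON (circles) and PKCi (diamonds). The RNAs lie below 12 CPM throughout, and the partners of Gm16685, Gm4117, 4930481A15Rik, Gm16365 and F730043M19Rik differ little between the libraries.

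Among RNAs that lie inside their partner, 1110046J04Rik had 18 counts in CON and 91 in PKCi (5.06-fold higher, 95% interval 3.03 to 8.92). It lies in Serpinb6a, a protease inhibitor gene, at 167 and 434 CPM (2.61-fold higher, 95% interval 2.49 to 2.73). Gm16174 had 5 and 28 counts in Bcl3, an atypical IkB gene, at 49.7 and 113 CPM. Gm28809 had 32 and 61 counts in the tetraspanin gene Cd9, at 220 and 660 CPM. Gm31305 had 3 and 18 counts in Pde4dip, which encodes the Golgi and centrosome protein myomegalin, at 207 and 641 CPM. In these 4 loci RNA and gene were both higher in the PKCi library.

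The lowest member, Gm15990, had 31 counts in CON and 1 in PKCi (31.0-fold lower, 95% interval 5.16 to 1262), inside the synapsin gene Syn3, at 5.41 and 2.55 CPM (2.12-fold lower, 95% interval 1.45 to 3.15). Gm14091 had 30 and 3 counts (9.99-fold lower, 95% interval 3.11 to 51.1), inside Knstrn, a spindle and kinetochore gene, at 119 and 55.2 CPM. 9630013A20Rik had 52 and 20 counts inside the protocadherin gene Pcdh17, which had 5.16 and 1.37 CPM. RNA and gene were both lower at these 3 loci. Gm15990 and 9630013A20Rik share no exon base with another listed gene, and Gm14091 shares 14.1%.

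Other inside pairs differed in direction or size. Gm4610 had 2 counts in CON and 23 in PKCi inside Bcar3, an adaptor protein gene, at 52.7 and 55.2 CPM. The RNA was at least 2-fold higher while its gene stood near equality, and it shares no exon base with another listed gene. Gm13963 had 30 and 13 counts (2.31-fold lower, 95% interval 1.17 to 4.81) inside the formin gene Fmn1, at 55.9 and 88.7 CPM (1.59-fold higher, 95% interval 1.46 to 1.73). Zeb2os had 17 and 14 counts (1.21-fold lower, 95% interval 0.563 to 2.66), whereas Zeb2, a transcription factor of epithelial to mesenchymal transition, was at 72.2 and 144 CPM (1.99-fold higher, 95% interval 1.85 to 2.14). In human cells an antisense RNA of ZEB2 was linked to retention of an intron in that message. Zeb2os shares 48.2% of its exon bases with other genes. Gm15222 had 40 counts in each library inside Bmp4, which was at 117 and 54.9 CPM. Gm17092 had 8 and 17 counts inside Hnrnpd, an AU-rich element binding protein gene, at 193 and 87.4 CPM, and shares 55.2% of its exon bases with other genes.

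In tail-to-tail pairs the 3′ ends overlap. Gm4117 had 18 counts in CON and 82 in PKCi (4.56-fold higher, 95% interval 2.71 to 8.08), and Xrcc4, a DNA end-joining gene, was at 11.6 and 13.5 CPM (1.16-fold, 95% interval 0.951 to 1.42). 4930481A15Rik had 13 and 47 counts beside Drap1, a transcription repressor subunit gene, at 91.2 and 86.1 CPM. Neither partner was as far from equality as its RNA. Gm4524 had 32 and 5 counts (6.39-fold lower, 95% interval 2.47 to 21.02), and P3h2, a collagen prolyl hydroxylase gene, was at 55.1 and 11.3 CPM (4.87-fold lower, 95% interval 4.15 to 5.74), the lowest log2 ratio of any partner (−2.19). Of the exon bases of Gm4524, 49.02% are shared with other genes. Gm16365 had 27 and 5 counts beside the kinase gene Fyn, which had 16 and 18 counts. Rab10os was at 7.27 and 10.4 CPM (1.43-fold higher, 95% interval 1.12 to 1.83) and Rab10, a trafficking GTPase gene, at 146 and 155 CPM.

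Where the coding gene lies within the RNA, Gm26714 had 3 counts in CON and 20 in PKCi across Tcim, at 28.2 and 137 CPM. Gm35853 had 23 and 13 counts across the keratin gene Krt80, at 39.5 and 15.3 CPM. Gm16845 had 6 and 23 counts (3.84-fold higher, 95% interval 1.52 to 11.5) across Ecsit, a mitochondrial complex I assembly gene, at 22.8 and 13.1 CPM (1.75-fold lower, 95% interval 1.47 to 2.08). Gm16279 had 26 and 14 counts across the tubulin acetyltransferase gene Atat1, at 8.33 and 25.8 CPM. RNA and gene were both higher at Tcim, both lower at Krt80, and on opposite sides at Ecsit and Atat1. Gm16845 and Gm16279 share 47.3% and 45.1% of their exon bases with other genes. Over all 181 pairs, 3 had member and partner beyond 0.58 on the log2 scale in opposite directions: Gm16845 with Ecsit, 4632427E13Rik with Rab30, and Gm13963 with Fmn1.

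Members named for a coding gene, with the suffix os for opposite strand, allow a pairing that does not rest on the overlap rule. There were 15 such RNAs whose namesake is in the table, and 12 namesakes were also the partner by position. RNA and namesake were on the same side of 0 in 6 of 15. Among these, Junos, Map2k3os and Brip1os had log2 ratios of 1.65, −1.38 and −0.61, and Jun, Map2k3 and Brip1 1.29, −1.18 and −0.81. The others lay on opposite sides, several by little. Runx2os1, Chn1os3, Igf2os, Zeb2os and Rab26os were lower with PKCi beside a higher namesake, though Rab26 had only 0 and 2 counts. Zbtb11os1, Mypopos and Cep83os were the reverse. Sp3os, at 2.55 CPM in both libraries, lay above 0 only through the library totals, beside Sp3 at 89.3 and 84.7 CPM. Igf2os had 47 counts in CON and 43 in PKCi beside the imprinted growth factor gene Igf2 at 12.5 and 21.8 CPM (1.74-fold higher, 95% interval 1.46 to 2.08). Fgf2os had 7 and 19 counts and Fgf2, a fibroblast growth factor gene, 80 and 102 counts (1.28-fold, 95% interval 0.943 to 1.73). Far1os had 14 and 41 counts beside Far1, a fatty alcohol synthesis gene, at 176 and 194 CPM.

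Of 59 noncoding RNAs listed as known in the literature, 40 were in the table, 15 of them with one of these biotypes, and 5 were members, among them Tug1, Rab10os, Airn and Zeb2os. Among the 5, Rab10os had the ratio farthest from 1, and none was at least 2-fold apart.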

How the data were processed

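Per the labels, messenger RNA libraries of 2 CMT167R cultures were made with a stranded kit and read as paired ends; a second protocol text names retinas and a kit that does not mark strand. HISAT2 2.0.5 and the builds GRCm38 and mm10 stand in the submitters' processing notes, which as used here give neither the counting program nor its strand setting. The deposited table holds raw whole-number counts per gene with no normalization by the authors, though its name speaks of FPKM.

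CPM is the count over the library total times 1000000, and log2 ratios used a pseudocount of 1 CPM, which shrinks those of low genes; folds are plain ratios. Ratio intervals are exact conditional binomial (Clopper-Pearson) and cover counting error only, since PCR copies of a molecule were not told apart. Partners came from the deposited coordinates, and head-to-head pairs with a gap needed 5′ ends within 1000 bases. Exons came from GENCODE M21, where all 181 identifiers matched and 179 had the same position. Members and lists were chosen with earlier results of these data known. Text names the 8 highest and 8 lowest ratios, the 5 most abundant, head-to-head members at least 2-fold apart, pairs opposed beyond 0.58, listed known RNAs and those at the limit; other members were chosen after their values were seen, and 2 pairs are not reported here. Promoters were taken from RefSeq, where 7 RNAs and 8 partners of 10 head-to-head pairs looked up had an entry. Procedures were tested on simulated data. Python 3.11.15, pandas 2.3.3 and SciPy 1.17.1 were used, with edgeR 4.0.16 for TMM factors only. Alternatives changed the pseudocount, filter, scaling and pairing.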

Additional observations from a re-analysis of the deposited data

How the results depend on the processing

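No paired analysis was possible because each group had 1 library, so replicates could not be left out either. Of 45 alternative values of the 5 group results, 22 stayed close to the reported value and 23 moved. Only the median and r could change sign, since the others are counts, and both stayed above 0 throughout. Under a pseudocount of 0.1 CPM 2-fold higher members numbered 56 (30.9%, beside 9.62% of all genes), 2-fold lower ones 16 (8.84%, beside 7.24%), and the median was 0.51. By plain ratio the counts were 61 and 17. Under a pseudocount of 5 CPM the counts were 0 and 0, beside 3.66% and 2.64% of all genes, and the median was 0.13. With at least 5 CPM, 25 members passed, 3 at least 2-fold higher (beside 6.18% of all genes) and 2 lower (beside 5.29%), with 17 pairs on the same side of 0 and an r of 0.547. With no filter (1175 genes) the median was 0.087, with 641 pairs on the same side and an r of 0.278. With TPM values and 1 TPM as the limit (460 genes) 103 were higher (22.4%, beside 9.86%) and 31 lower (6.74%, beside 6.95%), with 269 pairs on the same side and an r of 0.328. Pairs without shared exon bases gave 45 of 67 on the same side and an r of 0.572, and pairs with both genes at 5 CPM or more 13 of 19 and 0.612. TMM and median-of-ratios scaling left all 31 members named by the rule on the same side of 2-fold. The TMM factors were 1.007 (CON) and 0.993 (PKCi) and the median-of-ratios factors 1 and 1, so these scalings could hardly move a ratio. Counts under 50 in most members limit the precision of single ratios, and 1 library per group gives no measure of variation between cultures.
The share of higher members thus stood near that of all genes with a pseudocount of 1 CPM and the limit of 1 CPM. It was above that share with a smaller pseudocount, by plain ratio or in TPM. At a limit of 5 CPM it was above as well, but on 3 of 25 members only. With a pseudocount of 5 CPM or no filter it was below.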
